A study of Homo sapiens with 8 samples.

Results

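The immediate-early genes examined here were 10 listed genes: FOS, FOSL1, JUN, JUNB, JUND, EGR1, IER2, IER3, ATF3 and KLF10. They were chosen by symbol, with earlier results of these data known, and were compared between the chromatin and nucleoplasm RNA of HAP1 nuclei. HAP1 is a near-haploid human leukemia cell line. All groups were the same untreated line, grown to high confluence and lifted enzymatically from the flask before the nuclei were prepared, and no stimulus or time course was part of the design. Nuclei were split into a urea and detergent pellet (chromatin) and its supernatant (nucleoplasm), with equal ERCC spike-in RNA in each, and ribosomal RNA was depleted. The libraries were 3 chromatin and 3 nucleoplasm short-read libraries, both fractions from 3 independent cultures, and 2 long-read chromatin libraries. Cytoplasmic RNA was not analysed here, so each comparison is between fractions of the nucleus.

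A gene was counted as a member when its row was named by the annotation, that is by its own identifier or by a same-strand overlap of spans with a Jaccard index (shared length over total length) of at least 0.5. By this rule 9 of the 10 genes were named among the 62727 rows of the short-read table, all 9 passed the filter on low values with 26066 genes in all, and all 10 were named among the 301869 long-read transcripts. The exception was JUN. Its row, MSTRG.1207, matched the span of the canonical JUN transcript base for base (chromosome 1, 58780791 to 58784047, minus strand), but the annotated gene reaches from 58776845 to 58784048, which gave an index of 0.452. The lowest index among the 9 named genes was that of EGR1, at 0.740. JUN is therefore described beside the 9 genes and left out of their counts.

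Immediate-early genes are transcribed within minutes of a growth factor or stress signal, without new protein synthesis, through factors such as SRF and its ELK partners that are already bound to their promoters. Many of their products are transcription factors: FOS and JUN family proteins pair to form AP-1, EGR1 is a zinc finger activator, ATF3 is a stress-induced bZIP factor, and KLF10 is a zinc finger repressor induced by TGF-beta. Many of their mRNAs are short-lived, in part through AU-rich elements in the 3′ UTR that are bound by decay factors such as ZFP36.

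The sequences around the start sites are shown for the 3 genes that were higher in chromatin and, for contrast, for JUND, which was higher in nucleoplasm. They are RefSeq promoters on GRCh38.p14, from 250 bases before to 50 after the start site, and capitals mark a searched motif.
FOS promoter (chr14:75278578-75278877, plus strand): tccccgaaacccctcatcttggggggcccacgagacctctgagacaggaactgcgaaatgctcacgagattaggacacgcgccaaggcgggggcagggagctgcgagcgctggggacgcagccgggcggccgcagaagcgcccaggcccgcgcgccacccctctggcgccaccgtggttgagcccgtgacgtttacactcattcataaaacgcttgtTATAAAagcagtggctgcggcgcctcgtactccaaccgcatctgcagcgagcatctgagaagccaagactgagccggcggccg
EGR1 promoter (chr5:138465229-138465528, plus strand): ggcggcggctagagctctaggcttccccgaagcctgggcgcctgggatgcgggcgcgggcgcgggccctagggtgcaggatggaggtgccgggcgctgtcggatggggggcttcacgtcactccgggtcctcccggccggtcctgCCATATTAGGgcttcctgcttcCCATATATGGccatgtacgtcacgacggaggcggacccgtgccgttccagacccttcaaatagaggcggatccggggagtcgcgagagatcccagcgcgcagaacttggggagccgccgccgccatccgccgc
JUN promoter (chr1:58783998-58784297, minus strand): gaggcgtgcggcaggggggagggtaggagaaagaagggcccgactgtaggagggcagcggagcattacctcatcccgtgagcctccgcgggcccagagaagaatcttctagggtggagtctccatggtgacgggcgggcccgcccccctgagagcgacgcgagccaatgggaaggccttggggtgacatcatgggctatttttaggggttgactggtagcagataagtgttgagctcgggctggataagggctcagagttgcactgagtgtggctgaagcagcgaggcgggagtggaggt
JUND promoter (chr19:18281573-18281872, minus strand): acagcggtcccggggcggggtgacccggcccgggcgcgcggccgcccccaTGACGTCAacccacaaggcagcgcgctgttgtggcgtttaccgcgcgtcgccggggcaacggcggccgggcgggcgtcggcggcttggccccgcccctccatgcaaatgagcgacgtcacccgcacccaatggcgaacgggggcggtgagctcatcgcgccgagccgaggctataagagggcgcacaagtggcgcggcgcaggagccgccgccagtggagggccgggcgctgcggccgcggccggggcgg
The motifs searched on both strands were the CArG box, to which SRF binds, the CRE TGACGTCA, the AP-1 site TGANTCA and the TATA box TATAAA. The EGR1 window held CArG boxes starting 105 and 83 bases upstream of its start site. A CArG box was in 1.29% of the 35116 RefSeq promoters. The FOS window held TATAAA at 33 bases upstream, as 11.5% of promoters did, and the JUND window held TGACGTCA at 200 bases upstream, as 1.85% did. TATAAA was also in windows not shown, at 31 bases upstream for JUNB and at 230 bases upstream for ATF3. TGANTCA, in 7.71% of promoters, was in none of the 8 windows found for 7 of these genes. The JUN window held no exact match to any of the 4 motifs, but it holds TGACATCA, which differs from the CRE by a single base. Near matches were not counted, and sites more than 250 bases upstream lie outside the windows, so a motif not found here may still be present. For FOSL1, IER3 and KLF10 no promoter is shown.

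The AU-rich pentamer ATTTA was counted in the 3′ UTR of each canonical GENCODE transcript, on the transcribed strand. Windows of 30 bases are shown for the genes with the most copies, FOS and IER3, and for EGR1 and FOSL1 with 1 copy each, with ATTTA in capitals.
FOS 3′ UTR (chr14:75282053-75282082, plus strand): tttattgtgtttttaATTTATTTAttaaga
EGR1 3′ UTR (chr5:138469061-138469090, plus strand): taactgaaaatgtaaATTTAtaaatatatt
IER3 3′ UTR (chr6:30743655-30743684, minus strand): ttgctcctaattaatATTTAtatgtATTTA
FOSL1 3′ UTR (chr11:65892274-65892303, minus strand): gcgagggcagctgctATTTAttttcctaaa
FOS had 5 copies, overlapping once as ATTTATTTA, and IER3 had 6. ATF3, JUN and KLF10 had 3 each, JUNB had 2, JUND had 1 and IER2 had 0. Over 19550 coding transcripts 67.5% held at least 1 copy, the median was 2 copies, and 7.07% held ATTTATTTA.

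The short-read libraries held from 38895027 to 43804918 reads in chromatin and from 75737601 to 79523938 in nucleoplasm. One field of the labels names chromatin for every library, so the fractions were taken from the titles. MALAT1 and NEAT1, nuclear RNAs known to be held at chromatin, were higher in all chromatin libraries, and GAPDH and B2M were higher in all nucleoplasm libraries. Of 7 haematopoietic markers, 4 (PTPRC, SPI1, GATA1 and MPO) had 0 reads in each library and only RUNX1 passed the filter. BCR and ABL1, whose fusion this leukemia line is known for, passed too, though gene counts do not show a fusion. Of 7 epithelial and fibroblast markers, KRT8, KRT18, EPCAM and COL1A1 passed, and CDH1, COL3A1 and PDGFRB had at most 8 reads a library. The unit below is the normalized count, a read count divided by the size factor the authors used for its library, and the fold change is chromatin over nucleoplasm on log2(normalized count + 1).

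FOS and EGR1 were far more abundant in chromatin than in nucleoplasm, JUN less so, and the other 7 genes lay near or below equality. A gene was called when the limma adjusted p-value was under 0.05 and the change was above 4-fold. Of the 9 named genes, 2 were called in chromatin, FOS and EGR1, and 0 in nucleoplasm. The same call was made for 21.2% of all tested genes in chromatin and 8.47% in nucleoplasm, and for 3.74% and 5.71% of the 12451 tested protein-coding genes. At any fold change, 2 of the 9 were higher in chromatin, 3 were higher in nucleoplasm (JUND, ATF3 and KLF10) and 4 did not pass the test (FOSL1, JUNB, IER2 and IER3). The background at any fold was 44.2% in chromatin and 45.2% in nucleoplasm over all genes, and 30.1% and 57.6% over protein-coding genes. The median log2 fold change of the 9 genes was -0.16, beside -0.02 over all tested genes and -0.39 over protein-coding genes. Because these are bulk extracts, more cells with an RNA and more of it per cell cannot be told apart.

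**Figure D1:**
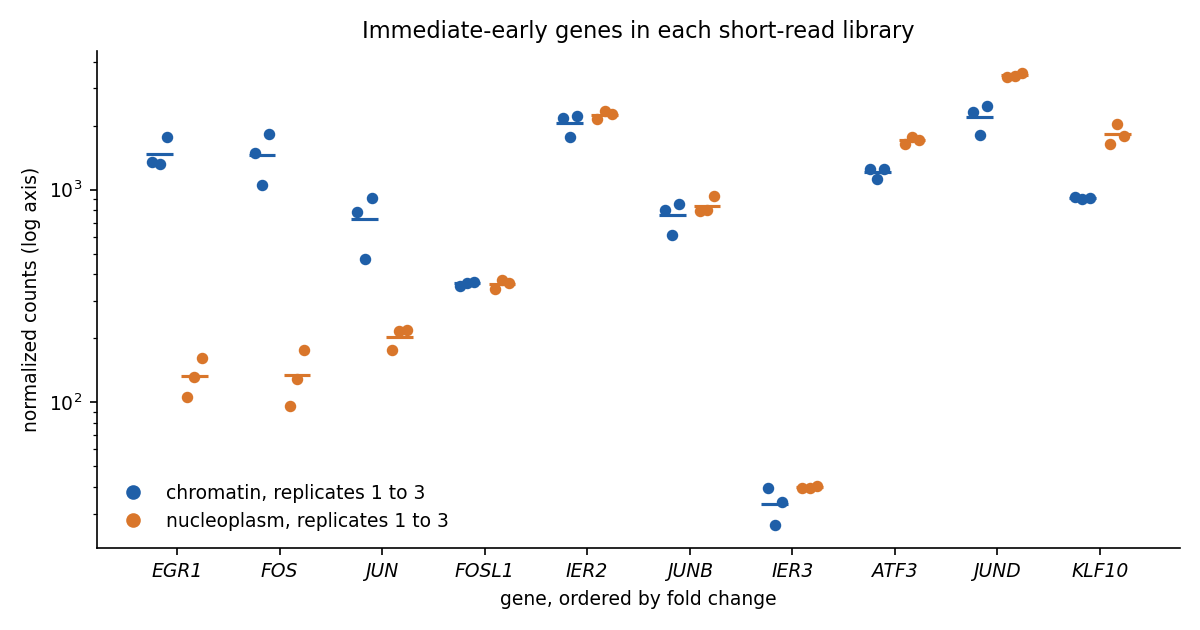
Normalized counts (log axis) of the 10 genes in each short-read library, with chromatin in blue and nucleoplasm in orange, replicates 1 to 3 from left to right and a line at the mean of 3 libraries. For EGR1, FOS and JUN all chromatin libraries lie above all nucleoplasm libraries, and for ATF3, JUND and KLF10 all lie below.

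FOS (MSTRG.9725, ENSG00000170345.10) encodes the leucine zipper protein that pairs with JUN proteins in AP-1. The gene lies on hg38 chromosome 14 from 75278826 to 75282230 on the plus strand and has 4 exons. FOS had 1485, 1051 and 1832 normalized counts in chromatin replicates 1 to 3 and 96.5, 129 and 176 in nucleoplasm replicates 1 to 3. The lowest chromatin library was well above the highest nucleoplasm library. The means were 1456 ± 391 and 134 ± 39.8 (SD, n = 3 each), and the log2 fold change was 3.44 (SE 0.25, 95% interval 2.87 to 4.01, adjusted p = 1.60e-06, limma). Among protein-coding genes 0.594% had a larger fold change towards chromatin. FOS also varied more between replicates than most genes, with an SD on the log2 scale of 0.40 in chromatin and 0.43 in nucleoplasm, where the median gene had 0.13 and 0.08.

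EGR1 (MSTRG.26862, ENSG00000120738.8) encodes a zinc finger factor that binds GC-rich sites. It lies on chromosome 5 from 138465479 to 138469303 on the plus strand, with 2 exons. The assembled row runs on for 1268 bases past the annotated gene end. EGR1 had 1341, 1319.8 and 1769.6 normalized counts in chromatin and 106, 132 and 162 in nucleoplasm. The fractions did not overlap, and replicate 3 was the highest library in each. The means were 1477 ± 254 and 133 ± 28.0 (SD, n = 3 each), with a log2 fold change of 3.47 (SE 0.17, 95% interval 3.08 to 3.85, adjusted p = 1.25e-07, limma). Of protein-coding genes, 0.578% had a larger fold change. This interval lay within that of FOS.

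JUN (ENSG00000177606.9) encodes the c-Jun subunit of AP-1, and its canonical transcript is a single exon without an intron. It had 788, 471 and 911 normalized counts in chromatin and 176, 217 and 218 in nucleoplasm. The chromatin libraries were all higher, but they spread widely, with an SD on the log2 scale of 0.50 that was larger than that of 95.7% of tested genes. The log2 fold change was 1.78 (SE 0.22, 95% interval 1.26 to 2.29, adjusted p = 6.95e-05, limma), under the 4-fold minimum. It rose to 2.06 without chromatin replicate 2, and JUN was then called.

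Among the listed genes, the other FOS and JUN family members (FOSL1, JUNB and JUND) did not share this difference. FOSB, a FOS paralog outside this list, did share it and is described below. FOSL1 (MSTRG.5438), which encodes the FOS-related protein FRA-1, lies on chromosome 11 from 65892049 to 65900573 on the minus strand, with 4 exons. It had 352, 365 and 369 normalized counts in chromatin and 339.6, 375 and 363 in nucleoplasm. The fractions overlapped, and the log2 fold change of 0.01 had a 95% interval from -0.14 to 0.16 (SE 0.07, adjusted p = 0.883, limma). At these depths a difference as large as that of FOS or JUN lies outside this interval.

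JUNB (MSTRG.16501), an AP-1 subunit that often opposes c-Jun, is a gene of 1 exon on chromosome 19 (12791486 to 12793315, plus strand). It had 799, 611 and 857 normalized counts in chromatin and 789.8, 801 and 931 in nucleoplasm. The fractions overlapped, with a log2 fold change of -0.16 (SE 0.13, 95% interval -0.46 to 0.13, adjusted p = 0.245, limma). An HOOK2 row on the opposite strand overlaps JUNB, and the short-read libraries kept strand.

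JUND (MSTRG.16686), the JUN subunit that most cells express without a stimulus, is also a gene of 1 exon on chromosome 19 (18279694 to 18281622, minus strand). JUND had 2314, 1803 and 2483 normalized counts in chromatin and 3396, 3420.2 and 3519 in nucleoplasm. Every nucleoplasm library was higher than every chromatin library. The log2 fold change was -0.66 (SE 0.11, 95% interval -0.91 to -0.41, adjusted p = 0.000364, limma).

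KLF10 and ATF3 were higher in nucleoplasm. KLF10 (MSTRG.32748, chromosome 8, 102648784 to 102655725, minus strand, 4 exons) had 921, 899.5 and 909 normalized counts in chromatin and 1639, 2037 and 1787 in nucleoplasm. The fractions did not overlap, and the chromatin libraries were close together, with an SD of 10.9. Its log2 fold change of -0.99 (SE 0.08, 95% interval -1.17 to -0.82, adjusted p = 2.84e-06, limma) was the lowest of the 10 genes.

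ATF3 (MSTRG.2869) spans 55444 bases of chromosome 1 (212565334 to 212620777, plus strand) because of a far upstream start site, while its canonical transcript has 4 exons and starts at 212608761. It had 1254, 1122 and 1243 normalized counts in chromatin and 1636, 1768 and 1709 in nucleoplasm. The fractions did not overlap, and the log2 fold change was -0.50 (SE 0.06, 95% interval -0.64 to -0.36, adjusted p = 5.31e-05, limma).

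IER2 and IER3 did not pass the test. IER2 (MSTRG.16531, chromosome 19, 13150411 to 13154911, plus strand), which encodes a nuclear protein induced by growth factors, had 2169, 1763 and 2206 normalized counts in chromatin and 2147, 2341 and 2256 in nucleoplasm. The libraries of the fractions overlapped, with a log2 fold change of -0.14 (SE 0.09, 95% interval -0.34 to 0.06, adjusted p = 0.153, limma). IER3 (MSTRG.27883, chromosome 6, 30743199 to 30744548, minus strand), which encodes a stress-induced regulator of cell survival, was the least abundant, with 39.6, 26.4 and 34.0 normalized counts in chromatin and 39.5, 39.6 and 40.6 in nucleoplasm. These values rest on 22 to 48 reads a library, and the log2 fold change of -0.27 (SE 0.18, 95% interval -0.68 to 0.14, adjusted p = 0.176, limma) is the least precise apart from those of JUN and FOS. The IER3 sequence is repeated at 99.84% to 99.92% identity on 5 alternate contigs of chromosome 6, where the tables held no row, so its level is uncertain.

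In all, 6 of the 10 genes had no overlap between the fractions, 3 in each direction. Over all tested genes 44.6% had no overlap with chromatin higher and 46% with nucleoplasm higher. A lack of overlap was thus no rarer among other genes.

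The scaling sets where equality lies. ERCC spike-in RNA was added in equal volume to both fractions, and with each library divided by its ERCC total the median fold change over all genes went from -0.02 to -1.33, while dividing by the total over genes took it to 0.44. FOS and EGR1 were called in chromatin under each of the 3 scalings, with log2 fold changes of 2.12 and 2.15 under the ERCC total and 3.90 and 3.93 under the same total. Under the ERCC total 12% of all tested genes and 0.787% of protein-coding genes were called in chromatin. JUN kept its direction, at 0.46 under the ERCC total and 2.24 under the same total, where it was called in chromatin.

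The other 7 genes were all below 0 under the ERCC total, from -1.31 for FOSL1 to -2.32 for KLF10, and KLF10 was then called in nucleoplasm. All 7 passed the test at any fold there, as 64.8% of all tested genes and 84.9% of protein-coding genes did in that direction. Under the same total FOSL1 (0.47), JUNB (0.30) and IER2 (0.32) passed the test in chromatin and KLF10 (-0.53) in nucleoplasm, while JUND (-0.20), ATF3 (-0.04) and IER3 (0.18) did not pass. The split of the 9 genes into higher in chromatin and higher in nucleoplasm was therefore 2 and 3 with the size factors, 2 and 7 with the ERCC total and 5 and 1 with the same total. Over all genes that passed at any fold, the share higher in chromatin was 49.4%, 25.9% and 61.3% in that order. A scaling shifts all genes of a library alike, so distances between genes are nearly the same under each by construction. With the size factors FOS was 3.46 and JUN 1.80 above the median of all tested genes, and KLF10 was at -0.98.

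**Figure D2:**
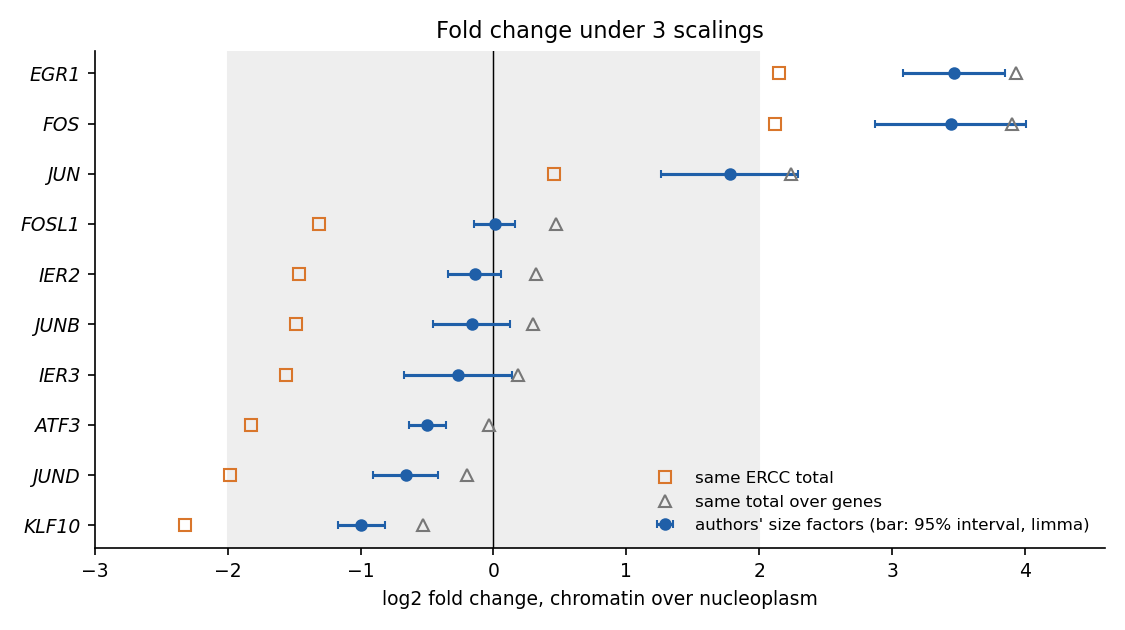
Log2 fold change (chromatin over nucleoplasm) of each gene with the authors' size factors (blue, with the 95% limma interval), with each library divided by its ERCC total (orange squares) or by its total over genes (grey triangles). The grey band spans changes of up to 4-fold, and FOS and EGR1 lie to its right under all 3 scalings.

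Ratios of genes within a library do not depend on its scaling. Of 4 such ratios, chosen after the values were seen, FOS to FOSL1 ran from 2.88 to 4.97 in chromatin and from 0.284 to 0.484 in nucleoplasm. JUN to JUNB ran from 0.770 to 1.06 and from 0.222 to 0.271. JUN to JUND ran from 0.261 to 0.367 and from 0.0517 to 0.0634. EGR1 to KLF10 ran from 1.46 to 1.95 in chromatin and from 0.0647 to 0.0908 in nucleoplasm. None of the 4 ratios overlapped between fractions, so in chromatin FOS exceeded FOSL1 and EGR1 exceeded KLF10, and in nucleoplasm the order was the opposite. Because they were picked for this pattern, no test is given.

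The order of the genes by level was compared per kilobase of canonical transcript. In chromatin the mean normalized count per kilobase was 1140 ± 184 for JUND, 970 ± 117 for IER2, 692 ± 186 for FOS and 622 ± 37.9 for ATF3, followed by EGR1 at 471 ± 80.9 and JUNB at 413 ± 70.3 (SD, n = 3 each). KLF10 was at 312, JUN at 222, FOSL1 at 213 and IER3 at 27.0. The ranges of the libraries overlapped between JUND and IER2, IER2 and FOS, FOS and ATF3, EGR1 and JUNB, and JUN and FOSL1, so these neighbours did not differ beyond their spread. In nucleoplasm JUND (1786), IER2 (1065), ATF3 (879), KLF10 (625), JUNB (459) and FOSL1 (211) came first, and FOS (63.6), JUN (62.5), EGR1 (42.5) and IER3 (32.2) last. Here FOS and JUN were the neighbours whose ranges overlapped. Per kilobase of all annotated exons together, which lengthens FOS, IER2 and ATF3 most, ATF3 moved most. It went to 302 normalized counts per kilobase in chromatin, below JUNB, and to 426 in nucleoplasm, below KLF10 and JUNB. EGR1 then came before FOS in chromatin (471 and 457) and in nucleoplasm (42.5 and 42.0). The EGR1 row runs 1268 bases past the annotated gene end, and neither length includes them, so the level and rank of EGR1 per kilobase may be overstated.

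The lowest replicate of a fraction was mostly the same over these genes, and whether the genes moved together was not tested. Chromatin replicate 2 was the lowest chromatin library for 9 of the 10 genes, all but FOSL1, and it was the lowest for 41% of tested genes. Nucleoplasm replicate 1 was the lowest nucleoplasm library for all 10 genes, and for 34.8% of tested genes. Chromatin replicate 3 was the highest for 7 genes and replicate 1 for 3, beside 33.5% and 30.7% of tested genes. In nucleoplasm the highest library was replicate 3 for 6 genes and replicate 2 for 4, beside 35.8% and 28.6% of tested genes. Some of these orders rest on small differences: in chromatin KLF10 spanned 1.02-fold and FOSL1 1.05-fold. FOS spanned 1.74-fold between its lowest and highest chromatin library and 1.82-fold in nucleoplasm, far less than the 10.9-fold ratio of its means. The genes share libraries, so these counts describe 6 libraries and no more.

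**Figure D3:**
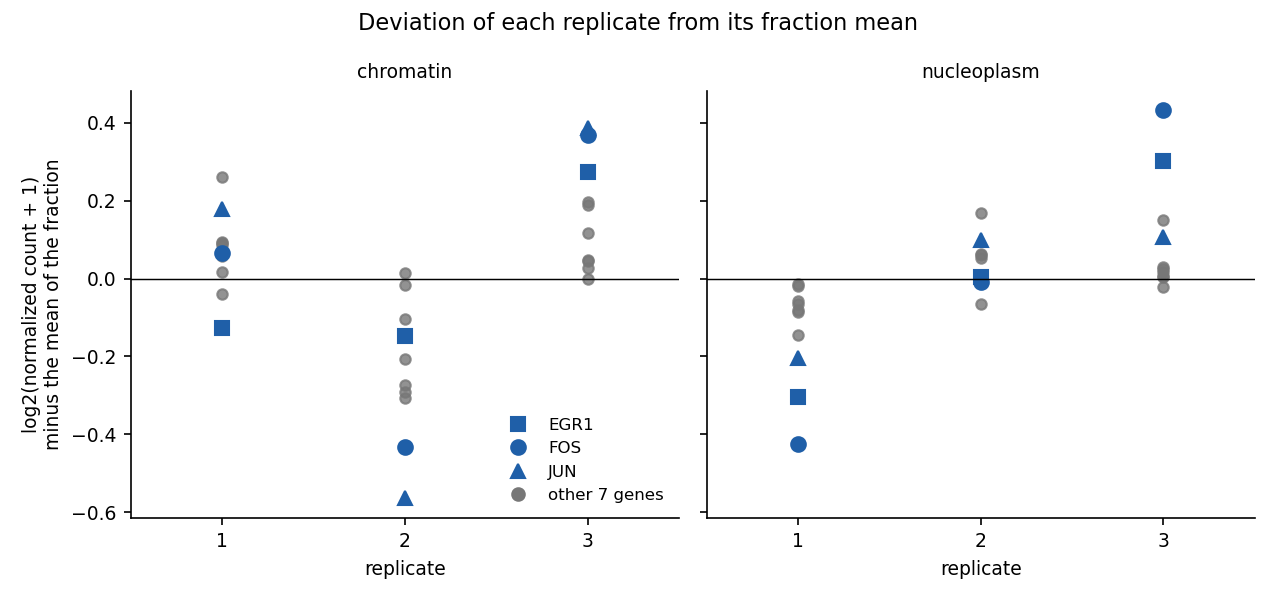
Deviation of each replicate from the mean of its fraction on the log2(normalized count + 1) scale, with chromatin on the left and nucleoplasm on the right; EGR1, FOS and JUN are blue and the other 7 genes grey. In nucleoplasm all 10 genes lie below 0 in replicate 1, and in chromatin FOS and JUN lie lowest in replicate 2.

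The long-read chromatin libraries gave TPM, a share of the abundance of all transcripts in a library, which holds no depth in reads, and with 2 libraries no test was made. All 10 genes were above 0 in both libraries. JUND had 25.3 and 29.6 TPM in replicates 1 and 2, summed over its transcripts. IER2 had 25.5 and 10.5, and JUNB had 26.0 and 9.02. KLF10 had 10.3 and 7.19 TPM, IER3 had 6.57 and 5.06, and FOSL1 had 6.60 and 2.39.

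The genes called in chromatin by short reads were low among the 10 genes in long reads. The median of all transcripts above 0 was 3.01 and 2.17 TPM in replicates 1 and 2. FOS had 5.99 and 0.854 TPM, a 7.02-fold difference between libraries that was the largest of the 10. EGR1 had 1.72 and 1.17 TPM and JUN had 0.953 and 2.65. By mean TPM, FOS ranked 8, JUN 9 and EGR1 10 of the 10. The rank of FOS was not stable: it was above ATF3 and JUN in replicate 1 and below both in replicate 2. In short-read chromatin per kilobase FOS ranked 3, EGR1 5 and JUN 8. IER3, which was the lowest by short reads, had a higher TPM than EGR1 and JUN in both long-read libraries. The annotated transcripts of FOS (10) and EGR1 (1) were listed at 0, and each gene was carried by 1 assembled transcript, MSTRG.23484.1 for FOS and MSTRG.64251.1 for EGR1, whose span matched the gene with a Jaccard index of 0.9997 and 0.959. Short-read and long-read tables were normalized separately, so only the order within each was compared.

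**Figure D4:**
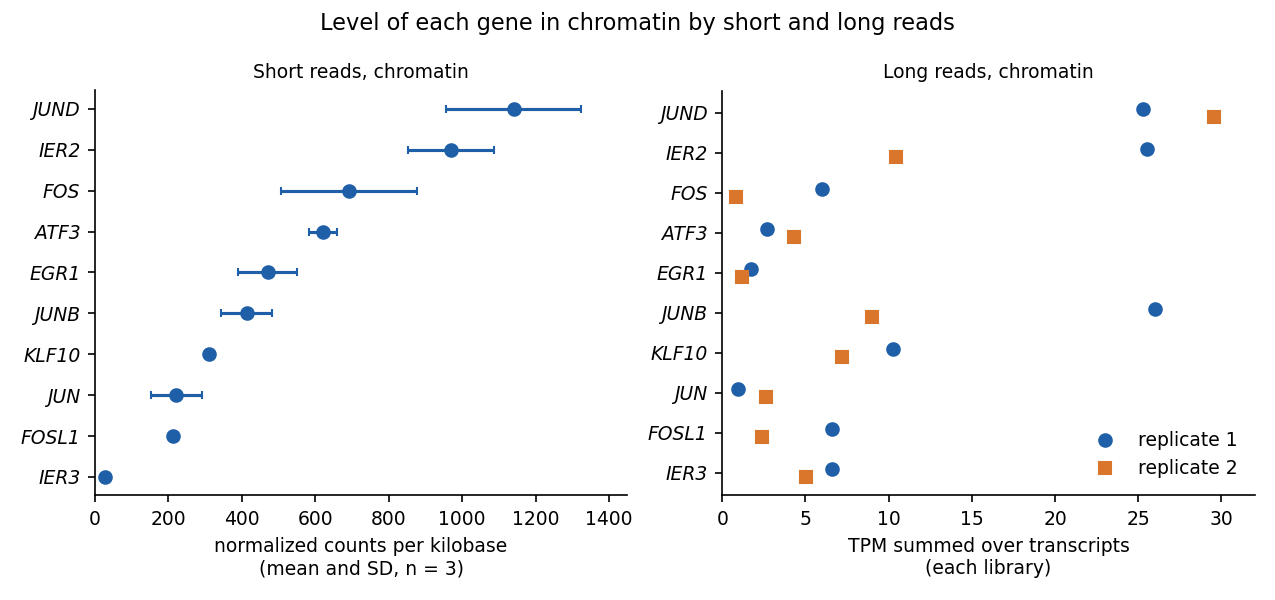
Level of each gene in chromatin, ordered by short reads: on the left normalized counts per kilobase of canonical transcript (mean and SD, n = 3), on the right TPM summed over transcripts in each of the 2 long-read libraries. FOS and EGR1 rank 3 and 5 on the left and lie at or below 5.99 TPM on the right.

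The transcripts behind these sums were few. JUN, JUNB and JUND were each carried by 1 reference transcript. IER2 was carried almost wholly by ENST00000588173.1 (25.2 and 10.5 TPM), which starts 1564 bases downstream of the annotated gene start, and FOSL1 by ENST00000312562.7. KLF10 was split between the full-length ENST00000285407.11 (5.56 and 0.330 TPM) and the assembled MSTRG.77914.1 (4.71 and 6.86 TPM), so the libraries differed in which transcript was higher. ATF3 had 2.71 and 4.33 TPM over 3 transcripts, which started 43336 to 49688 bases downstream of its far upstream start site. A pair of rows on the same strand within ATF3 were not named by the annotation used and were higher. ENST00000613954.4, which runs from 212608628 to 212620777, had 6.88 and 21.3 TPM. Its span is close to that of the canonical ATF3 transcript (212608761 to 212620775). MSTRG.6593.1, of 632 bases inside an ATF3 intron (212589804 to 212590435) and overlapping none of its exons, had 53.6 and 76.4 TPM. Both rows are left out of the ATF3 sum, so the long-read level of ATF3 depends on the naming and may be understated.

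Long reads came from cDNA that does not keep strand, and whether the table was made before or after strands were assigned is not given in the sources used here. Transcripts on the opposite strand were listed at KLF10, with 16.5 and 9.29 TPM in sum, at EGR1 with 1.81 and 1.89 TPM and at ATF3 with 2.71 and 8.88 TPM. Their sums exceeded those of the gene itself in both libraries at KLF10 and at EGR1. Transcripts of annotated neighbours were listed opposite JUNB, IER2 and IER3. In the short-read table, which kept strand, no row lay on the opposite strand within EGR1, ATF3 or KLF10.

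Short-read rows on the opposite strand within or up to 10 kilobases from these genes went both ways. Of 10 such rows that were tested, 5 had the higher mean in chromatin and 5 in nucleoplasm. The 3 with no gene name were all among the former, and their values are given as a description because they were picked after being seen. MSTRG.26861, upstream of EGR1 (138463130 to 138464858), had 156 to 221 normalized counts in chromatin and 49.9 to 56.6 in nucleoplasm. MSTRG.16687, upstream of JUND (18282168 to 18283107), had 68.5 to 103 and 17.2 to 26.2. MSTRG.16532, within IER2 (13151369 to 13151610), had 19.2 to 26.3 and 2.53 to 4.39. It rests on 16 to 24 reads a library in chromatin and 3 to 5 in nucleoplasm, and passed the filter through its chromatin libraries alone. None of the 3 overlapped between fractions, and over all tested genes 44.6% had no overlap with chromatin higher. Among those higher in nucleoplasm were STX10 beside IER2, with means of 610.1 and 1591 normalized counts in chromatin and nucleoplasm, and PRDX2 beside JUNB, with 3737 and 15592.

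Other immediate-early genes covered a range from chromatin to nucleoplasm as well. Of 38 listed, 34 were tested and 3 were called in chromatin: FOSB, a FOS paralog, EGR3, an EGR1 paralog, and the kinase gene SGK1. FOSB had 773, 169 and 1019 normalized counts in chromatin and 50.9, 55.1 and 49.8 in nucleoplasm, so chromatin replicate 2 was far below the other chromatin libraries but above nucleoplasm. FOSB had a log2 fold change of 3.28 (SE 0.57, adjusted p = 0.000581, limma), EGR3 had 2.83 (SE 0.24) and SGK1 had 2.12 (SE 0.18). FOSB was at 4.07 without chromatin replicate 2, and SGK1 was at 1.93 without chromatin replicate 3 and then no longer called. At any fold 22 were higher in chromatin, 7 were higher in nucleoplasm and 5 did not pass, with a median of 0.54. For comparison, 30.1% of tested protein-coding genes passed towards chromatin, 57.6% passed towards nucleoplasm and 3.74% were called in chromatin. Over all tested genes these shares were 44.2%, 45.2% and 21.2%. Among the listed genes that passed towards chromatin were GADD45A (1.76) and the phosphatase gene DUSP1 (1.43). NR4A1, an orphan nuclear receptor, was the lowest of the 34 at -1.01. Under the ERCC total the median was -0.77, 4 of the 34 were still higher in chromatin and 0 were called there. Of 12451 protein-coding genes, 605 were higher in chromatin under that scaling and 98 were called there.

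The lists of partners and regulators are given beside protein-coding genes as a whole, of which 3.74% were called in chromatin, 5.71% were called in nucleoplasm, and 30.1% and 57.6% were higher in chromatin and nucleoplasm at any fold. Of 12 tested bZIP factors that pair with or resemble AP-1 subunits, 0 were called, 4 were higher in chromatin and 5 in nucleoplasm, with a median of -0.16. ATF2, which pairs with c-Jun, was highest at 1.57, and NFE2L1 lowest at -1.48. Of 20 kinases and transcription factors upstream of these genes, 0 were called, 5 were higher in chromatin and 13 in nucleoplasm, with a median of -0.62. The ternary complex factor genes differed among themselves, with ELK4 at 1.96 and ELK1 at -1.65. SRF, counted among the other immediate-early genes, was at -0.27. Of 15 genes listed as mRNA decay factors or binders of AU-rich elements, 2 were higher in chromatin and 11 in nucleoplasm, with a median of -0.67. The binders went both ways: KHSRP was at -1.50, ELAVL1 at -1.23 and ZFP36L2 at -0.35, while ZFP36L1 was at 0.78. ZFP36, counted among the other immediate-early genes, was at 0.98. These values were from the limma fit. The scaling moved them: under the ERCC total the medians were -1.48, -1.95 and -2.0 for the bZIP, upstream and decay lists, with 0, 1 and 0 genes higher in chromatin, and under the same total they were 0.30, -0.16 and -0.21.

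Abundant long-lived mRNAs were on the nucleoplasm side. Of the tested protein-coding genes 5.71% were called in nucleoplasm and 57.6% were higher there at any fold. Of the 11 long-lived mRNAs tested, 8 were called in nucleoplasm, 10 were higher there at any fold and the median was -2.09, with TMSB10 at -2.85 and PFN1 at -2.66. The exception with the size factors was FTH1, which encodes ferritin heavy chain, at 0.43. Its means were 1405 normalized counts in chromatin and 1041 in nucleoplasm, the latter the lowest of the 11, so it was not among the most abundant here. Under the ERCC total FTH1 was at -0.90 and the median of the list at -3.42. Under the same total they were at 0.89 and -1.63. With the size factors KLF10, the lowest of the 10 members at -0.99, was closer to equality than the 10 long-lived mRNAs higher in nucleoplasm.

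**Figure D5:**
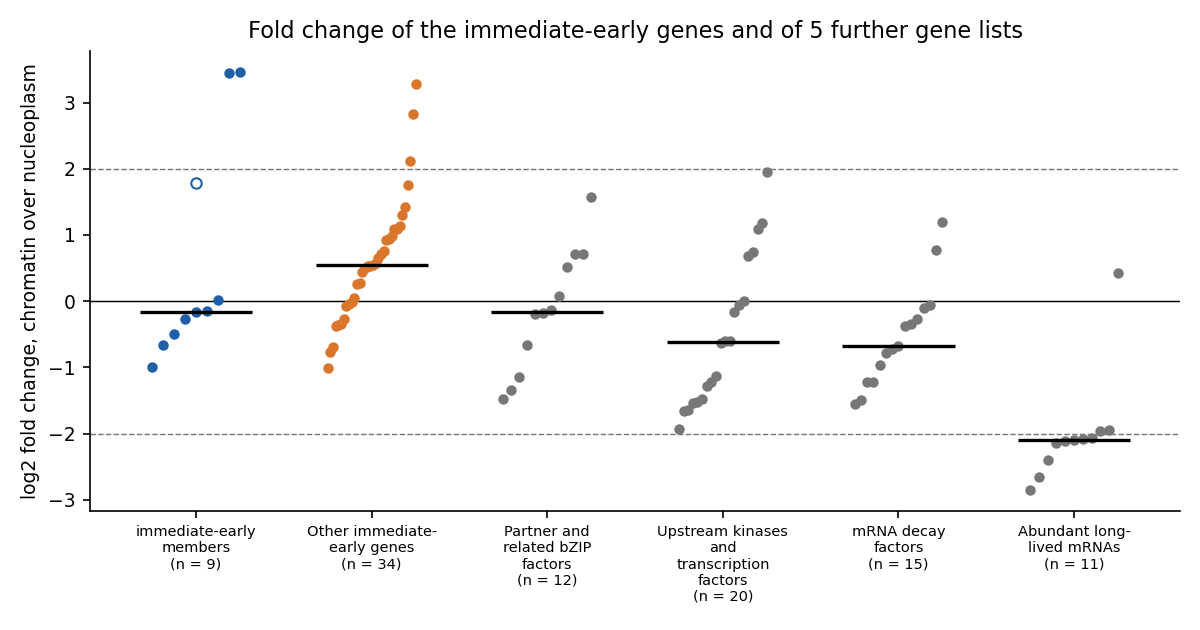
Log2 fold change (chromatin over nucleoplasm) of each tested gene by list, ordered within a list, with a line at the median of the list and dashed lines at 4-fold in each direction; the open circle is JUN, which is not in the median of the members. FOS and EGR1 stand at 3.44 and 3.47, the other immediate-early genes reach 3.28, and all but one of the abundant long-lived mRNAs lie at or below -1.95.

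Genes with a similar pattern over the 6 libraries were found by the distance between centred log2 values. The protein-coding genes outside the lists that lay closest to the mean pattern of the 9 genes were SERTAD1, RGS16, ZNF622, IL12A and CCDC142, at distances of 0.0856 to 0.162 log2 units over 6 libraries. Because the mean pattern mixes both directions, its fold change was small, and those of the 5 genes lay between 0.41 and 0.48. Measured against single genes, a comparison added after the values were seen, DNAJB13 and CCNL1 lay closest to FOS (0.485 and 0.653), CCNL1 and DNAJB13 to EGR1 (0.370 and 0.422), and RGS2 to JUN (0.440).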

How the data were processed

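RNA of HAP1 nuclear fractions was analysed from 8 libraries in 3 groups, with groups and replicate numbers taken from the sample titles. For short reads, the authors aligned directional single-end reads with HISAT2 2.1.0 (per the submitters' processing notes) to hg38 with ERCC sequences, assembled and counted with StringTie, and deposited a normalized signal, each gene count over the DESeq2 size factor of its library. Long reads were aligned by the authors with minimap2, who assembled them with StringTie and deposited TPM per transcript. Such counts come from assembled coverage, and rows of overlapping genes depend on that assembly.

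Dividing the nonzero values of a short-read library by the smallest of them gave whole numbers for 100% at a tolerance of 0.001, taken as recovered reads (38895027 to 79523938 a library). Counts carry counting error, and TPM holds no depth. Rows were named from GENCODE release 44, while the authors used an earlier release. A gene was tested if 3 or more libraries reached 10 normalized counts and its row spanned over 200 bases, and the 92 ERCC rows were left out. Values of log2(normalized count + 1) were fitted in limma 3.58.1 (R 4.3.3) with its trend option, 3 against 3 libraries, with Benjamini-Hochberg adjustment over 26066 genes and no covariate. The pseudocount understates the change of low genes. Recovered reads were also fitted with edgeR 4.0.16 and DESeq2 1.42.0, which called 7842 and 7807 genes against 7739. Further alternatives changed the pseudocount, filter or scaling, added the replicate number, or left out 1 library. Scripts were tested on simulated data. The named genes are the 10 listed genes, 4 check genes and, from each further list, those called or up to 4 examples with the largest fold change. GADD45A, DUSP1, NR4A1, SRF, FTH1, KHSRP, ZFP36, ZFP36L1 and ZFP36L2 were chosen after their values were seen. So were the ratios, the neighbouring rows and the single-gene likeness. The members and lists were chosen with earlier results of these data known.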

Additional observations from a re-analysis of the deposited data

How the results depend on the processing

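FOS and EGR1 were called in chromatin, and no other member was, under every alternative run for the 9 genes: with fold changes of 3.23 to 3.66 for FOS and 3.31 to 3.62 for EGR1 when each library was left out, 3.47 and 3.49 in edgeR and 3.54 and 3.56 in DESeq2. Over all genes the 7739 calls became 4747 with a filter at a mean of 50, 12132 with the same ERCC total and 15404 with a 2-fold minimum, and ran from 7408 to 7933 when each library was left out. With the same ERCC total, 1 member was called in nucleoplasm and 7 were higher there at any fold. With the same total, 5 were higher in chromatin and 1 in nucleoplasm. ERCC totals ran from 94579.8 to 122151 normalized counts in chromatin and from 37409 to 49777 in nucleoplasm, and since all genes of a library share its total, p-values under that scaling are too small. The median over the members of -0.16 became -1.49 with the ERCC total and 0.30 with the same total, and ran from -0.26 to -0.04 when each library was left out. Adding JUN, an alternative added after seeing the data, gave -0.15.

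FOSL1, close to equality, changed sign to -1.31 with the ERCC total, -0.00306 without chromatin replicate 3 and -0.0293 without nucleoplasm replicate 1, and was at 0.0426 without nucleoplasm replicate 2. JUNB (0.30), IER2 (0.32) and IER3 (0.18) changed sign with the same total, where JUND (adjusted p = 0.0808, limma) and ATF3 (adjusted p = 0.558, limma) no longer passed. Of 169 fold changes of single members under alternatives, 157 kept their direction and their side of an adjusted p-value of 0.05. The 4-fold call changed in 3: JUN was called in chromatin with the same total (2.24) and without chromatin replicate 2 (2.06), and KLF10 in nucleoplasm with the ERCC total (-2.32). Restricting long reads to reference transcripts left 8 of the 10 genes above 0 in both libraries, since FOS and EGR1 were carried by assembled transcripts.

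The replicate number as a block gave 7758 calls over all genes and the same calls among the members. With the block the SE fell for FOS from 0.25 to 0.16 and for EGR1 from 0.17 to 0.08. It rose slightly for FOSL1, IER3 and ATF3 and fell for the remaining members. Deviations of same-numbered chromatin and nucleoplasm libraries correlated across genes at 0.0871, 0.0533 and 0.0626, each the highest for its number but under 0.1. These values do not settle whether the numbers pair the libraries, and the main fit left the numbers out. Both fractions came from 3 cultures, but whether a number marks the same culture in both is not given in the sources used here. IER3 rests on at most 48 reads a library, and in long reads the depth behind a TPM is unknown.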
